A study of Mus musculus with 37 samples.

Results

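The vault is a barrel-shaped ribonucleoprotein particle of the cytoplasm, and 4 mouse genes that encode its parts were examined: Mvp, Vaultrc5, Tep1 and Parp4. Members were chosen by gene symbol, and a gene counted as measured when a probe set listed that symbol alone, with the probe set of the highest mean standing for it. By that rule 2 of the 4 genes were measured, Mvp and Vaultrc5, of 19938 genes in all. No probe set listed Tep1. The 1 probe set that listed Parp4 listed a second gene as well, Mphosph8, and was not used. Measured values also entered the choice, because Vaultrc5 was taken up after its low level in df/+ mice had been seen on these arrays and was selected on that df/+ difference. Its df/+ values, and every slope or step that contains them, are therefore given as a description with no test. Mvp was taken up as a gene of the interval whose copy number was altered, with its slope on copy number already known.

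Expression was measured with 37 Affymetrix arrays in 4 regions of the brain of 8 males, all F1 C57BL/6N:129Sv hybrids. The 2 df/+ mice had 1 copy of the mouse counterpart of human 16p11.2, a segment of chromosome 7 deleted from 1 of the paired chromosomes. The 3 +/+ mice were wild type and had 2 copies, and the 3 dp/+ mice carried a duplication of it on 1 of the pair and so had 3. The regions were cerebellum, cortex, brain stem and olfactory bulb. Ages are not given in the sources used here. The arrays covered 31 region samples, since 6 samples were hybridised more than once and were averaged, and no cortex of dp/+ mouse 3 was analysed here. All values are on the log2 scale of the deposited array signal. A probe set does not have the same brightness per molecule as another, so the levels of different genes are not compared as amounts of RNA. The number of arrays limits the precision, and with 2 df/+ mice every df/+ estimate leans on the spread of the other genotypes. Marker genes bore out the dissections, since in +/+ mice each of the measured markers peaked in the region it marks (6 of 6 for cerebellum, 5 of 5 for olfactory bulb, 5 of 5 for brain stem and 4 of 4 for cortex).

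Each vault is a closed shell built of many copies of the major vault protein, the product of Mvp. Small untranslated vault RNAs are transcribed by RNA polymerase III and ride inside the shell, and Vaultrc5 encodes the vault RNA of the mouse. Tep1, which also binds telomerase RNA, holds the vault RNA in the particle, and Parp4 is a poly(ADP-ribose) polymerase that sits within it. Vaults have been found in axons and nerve terminals of the electric ray and in rodent neurons, and have been linked to transport, signalling and stress responses, although their main task in the brain is not settled. Mvp lies inside the altered interval, while Vaultrc5 lies on another chromosome and had 2 copies in every mouse by the design.

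The sequence just upstream of Mvp is shown because it is part of the segment whose copies differ between the genotypes. It holds the 250 bases before the start site, from RefSeq (GRCm38.p6, chr7:127014595-127014844, minus strand), and the capitals mark the 1 match to the GC box GGGCGG, read here on the opposite strand.
Mvp promoter: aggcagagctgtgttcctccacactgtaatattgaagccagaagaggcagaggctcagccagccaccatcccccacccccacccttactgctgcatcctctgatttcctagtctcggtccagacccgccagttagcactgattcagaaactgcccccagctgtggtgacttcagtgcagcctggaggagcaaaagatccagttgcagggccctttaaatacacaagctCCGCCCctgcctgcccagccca
The match begins at position -22 from the start site, and 32.9% of 27025 promoters of this length hold such a match on either strand. The TATA box letters TATAAA had 0 matches on either strand, where 13.0% of promoters hold one. The letters CCAAT of the CAAT box (34.5% of promoters) and the STAT type motif TTCNNNGAA (7.18% of promoters) also had 0 matches on either strand, so no motif searched overlapped another. The window has 3 CpG dinucleotides, against a median of 6 over all promoters, and 57.2% of its bases are G or C. The arrays do not read this sequence, so its matches are a description only.

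Mvp followed the number of copies of the interval. Averaged over the regions of each mouse, its level was lowest in the df/+ mice and highest in the dp/+ mice. Relative to the +/+ mean of each region, df/+ mice 1 and 2 lay at −0.31 and −0.25 log2. The +/+ mice 1, 2 and 3 lay at −0.002, −0.08 and 0.08, and the dp/+ mice at 0.30, 0.28 and 0.44. The slope of Mvp, as log2 expression per log2 of the copies (1 where expression is proportional to them), was 0.39 ± 0.05 (SE, n = 8 mice; 95% interval 0.27 to 0.50; limma adjusted p = 0.00571). Across all genes 0.110% passed that threshold, an adjusted p of 0.05. The call rested in part on df/+ mouse 1, without which the slope was 0.389 with an adjusted p of 0.104 in limma.

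Taken apart, the gain of Mvp in dp/+ mice passed the test and the lower level in df/+ mice did not. In dp/+ mice Mvp rose by 0.34 ± 0.06 log2 over +/+ mice (SE, n = 3 each; limma adjusted p = 0.0258), to 126.5% of the +/+ level, in a comparison that called 1.86% of all genes. Its level in df/+ mice stood at 82.5% of +/+, a difference of −0.28 ± 0.07 log2 (SE, n = 2 and 3; limma adjusted p = 0.397), where 0.115% of genes were called. The array signal is not calibrated against amounts of RNA, so these shares are shares of signal. The step between 1 and 2 copies minus the step between 2 and 3, each per log2 copy, was −0.30 ± 0.15 (SE; limma adjusted p = 0.301), and 0.0652% of genes differed by that test. The dp/+ call missed the threshold with any 1 of the 3 dp/+ mice left out, with estimates of 0.29 to 0.37 and limma adjusted p values of 0.0538 to 0.069, and also without +/+ mouse 2 (0.30, adjusted p = 0.126) or +/+ mouse 3 (0.38, adjusted p = 0.0503).

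Region by region, the order of the Mvp means by copy number was the same in all 4 regions. In the olfactory bulb the df/+ mice had 7.39 and 7.38, the +/+ mice 7.68, 7.86 and 7.70, and the dp/+ mice 7.92, 7.94 and 8.13 log2. In the cortex the df/+ mice had 7.22 and 7.32, the +/+ mice 7.45, 7.32 and 7.56, and dp/+ mice 1 and 2 had 7.87 and 7.88 log2. The dp/+ samples lay above every +/+ sample in both regions, while 1 df/+ cortex sample lay among the +/+ ones. In the cerebellum the df/+ mice had 7.75 and 7.68, the +/+ mice 8.17, 8.01 and 8.16, and the dp/+ mice 8.43, 8.18 and 8.54 log2. In the brain stem the df/+ mice had 7.44 and 7.67, the +/+ mice 7.74, 7.54 and 7.95, and the dp/+ mice 7.99, 8.15 and 8.26 log2. The 3 genotypes were thus separate in the cerebellum, where the lowest dp/+ sample was just above the highest +/+ one, and df/+ mouse 2 lay among the +/+ mice in the brain stem.

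**Figure D1:**
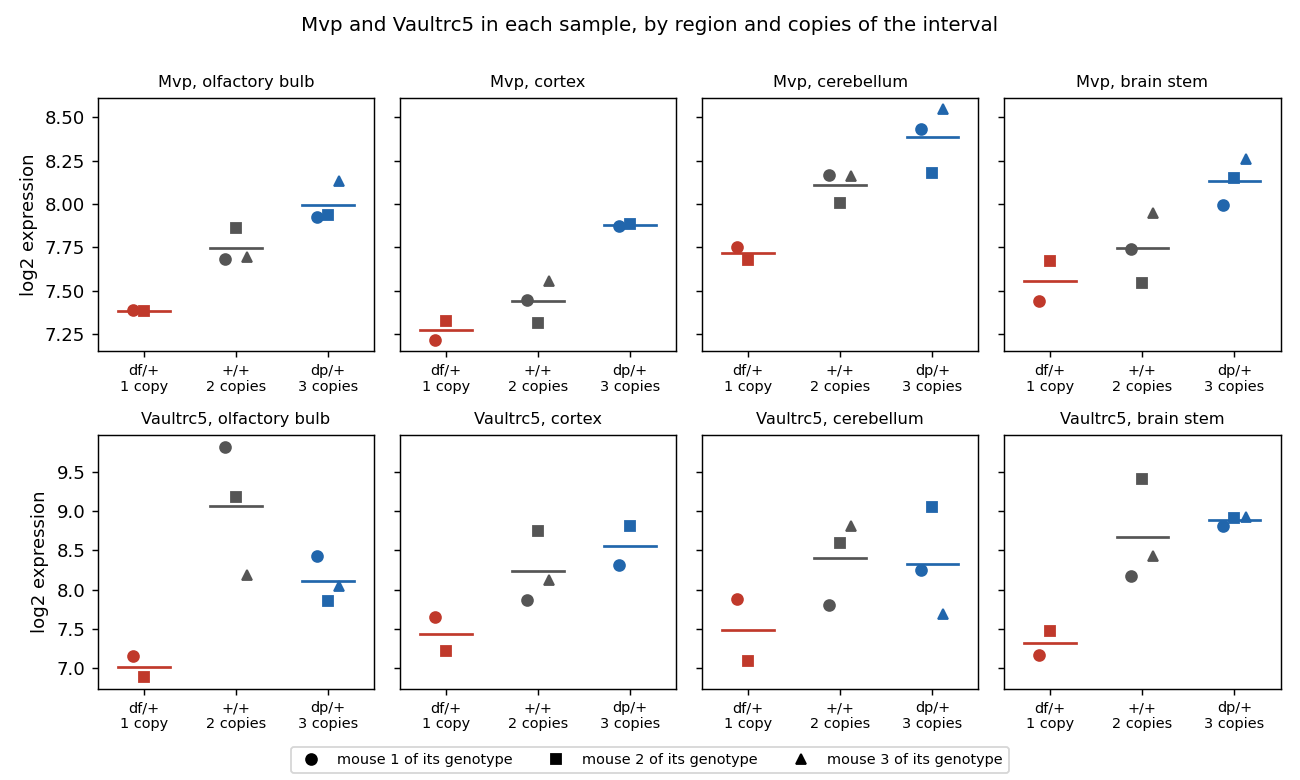
Log2 expression (vertical axes) of Mvp (upper row) and Vaultrc5 (lower row) in each region sample, by genotype and copies of the interval (horizontal axes), with one panel per region. Symbols mark the mouse within its genotype and lines the group means. Every dp/+ point of Mvp lies above the +/+ points of its region, while the df/+ points of Vaultrc5 lie below all +/+ points in every region but the cerebellum.

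Counted over regions, the dp/+ samples of Mvp lay above every +/+ sample in 4 of 4 regions. That holds for 8.87% of all genes in the olfactory bulb, 25.9% in the cortex (where dp/+ has 2 samples), 16.1% in the cerebellum and 2.83% for the brain stem. Its df/+ samples lay below every +/+ sample in 2 of 4 regions, the olfactory bulb and the cerebellum, as do those of 14.6% and 19.2% of genes. The shares for the cortex and the brain stem, where Mvp overlapped, were 14.3% and 9.32%.

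The slope of Mvp was similar in size in the 4 regions and passed the test in the cerebellum and the olfactory bulb. It was 0.42 ± 0.08 in the cerebellum (SE; limma adjusted p = 0.00815) and 0.39 ± 0.08 in the olfactory bulb (limma adjusted p = 0.0139), where 0.115% and 0.246% of genes were called. In the brain stem it was 0.36 ± 0.08 (limma adjusted p = 0.0568) and in the cortex 0.37 ± 0.08 (limma adjusted p = 0.133), where 0.120% and 0.0953% were called. An F test did not separate the 4 slopes of Mvp (F = 0.139, limma adjusted p = 1, with 0.0502% of genes called), so the calls in 2 regions do not set those regions apart. The cerebellum call held in 13 of 19 alternatives and the olfactory bulb call in 15 of 19. Both were lost without df/+ mouse 1, df/+ mouse 2 or dp/+ mouse 3, and the cerebellum call also without dp/+ mouse 1 (limma adjusted p of 0.0565 to 0.233 over these).

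In the main fit, neither genotype alone passed the test for Mvp within any region. The df/+ differences were −0.36 ± 0.12 (olfactory bulb), −0.17 ± 0.12 (cortex), −0.40 ± 0.12 (cerebellum) and −0.19 ± 0.12 log2 for brain stem (SE; limma adjusted p = 0.204, 0.914, 0.337 and 1). The shares of genes called there were 0.291%, 0.100%, 0.0702% and 0.211%. The dp/+ differences of Mvp were 0.25 ± 0.10, 0.46 ± 0.11, 0.27 ± 0.10 and 0.39 ± 0.10 in the same order of regions (SE; limma adjusted p = 0.191, 0.144, 0.0927 and 0.588), with 2.27%, 0%, 5.54% and 0.0150% of genes called. In the cortex 0 genes were called and 3143 had an unadjusted p under 0.05 in limma. The cortex estimate of the fit exceeds the difference of the 2 group means, because the mouse entered as a random block and dp/+ mouse 3 has no cortex value. The df/+ effect on Mvp did not differ detectably between regions (F = 1.17, limma adjusted p = 0.89, 0.0602% of genes called), and neither did the dp/+ effect (F = 0.926, limma adjusted p = 0.711, 0.211% called), a test added after the values were seen. With array weights the dp/+ difference of Mvp did pass in the cortex (0.442, limma adjusted p = 0.00621) and the cerebellum (0.26, limma adjusted p = 0.0488).

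**Figure D2:**
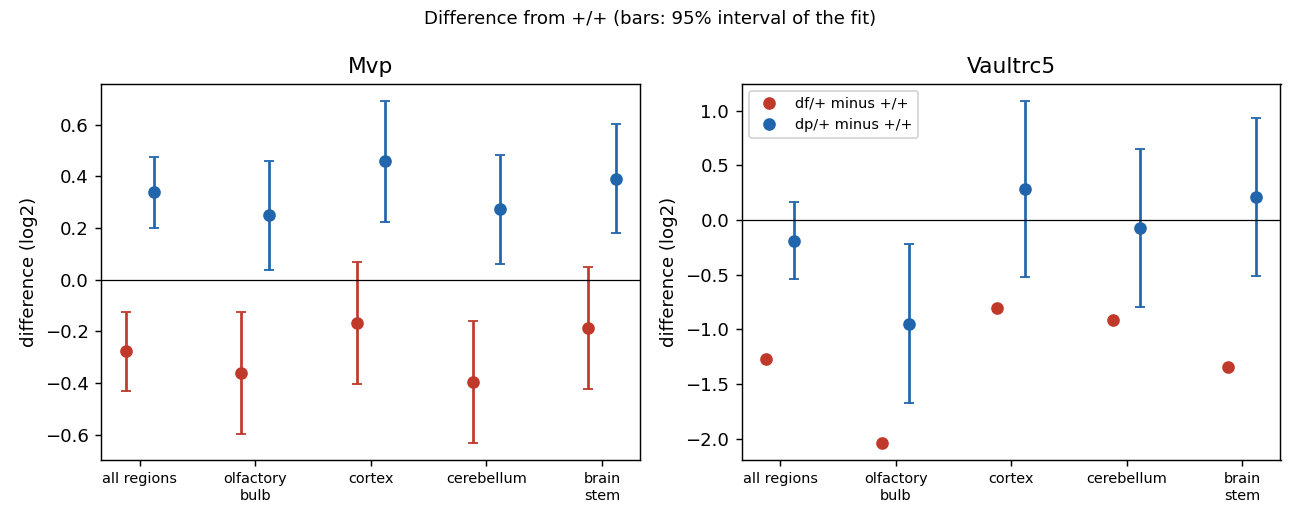
Difference from +/+ (log2, vertical axes) of Mvp (left) and Vaultrc5 (right), over all regions and in each region, for df/+ (red) and dp/+ (blue). Bars are 95% intervals of the limma fits, with none drawn for the df/+ values of Vaultrc5, which chose that gene. Mvp lies below 0 in df/+ and above 0 in dp/+ at every position, whereas Vaultrc5 in dp/+ lies on both sides of 0.

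Against the other genes of the interval, the response of Mvp was on the shallow side for the loss and near the middle for the gain. The interval holds 30 measured genes, of which 21 were called for the slope, 19 for df/+ and 15 for dp/+, beside 0.110%, 0.115% and 1.86% of all genes. Ordered by size, Mvp was number 21 of 30 for the slope, where the median was 0.58, and number 21 for the df/+ difference, where the median was −0.60. For the dp/+ difference it was number 13, above the median of 0.27. The mean +/+ signal of Mvp was 7.76 log2. Interval genes with less signal had shallower slopes, from 0.08 (Spn) to 0.22 (Kif22), except Hirip3 (0.48). Those with more signal had steeper slopes, except 4930451I11Rik (0.10). Whether the place of Mvp depends on its signal was not tested. The places describe the 30 genes, and the differences between Mvp and the others were not tested.

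Of the 3 nearest measured genes on each side of Mvp, 5 of the 6 were called for the slope, for df/+ and for dp/+, beside 0.110%, 0.115% and 1.86% of all genes. On one side lie Asphd1, Sez6l2, which encodes a neuronal membrane protein, and Cdipt, which makes phosphatidylinositol. On the other lie Pagr1a, a part of histone methyltransferase complexes, the zinc finger transcription factor gene Maz, and the mitotic kinesin gene Kif22, which was not called (limma adjusted p = 0.124, 0.588 and 0.12). In dp/+ mice Sez6l2 rose by 0.41, Pagr1a by 0.43, Maz by 0.37, Asphd1 by 0.37 and Cdipt by 0.37 log2, against 0.34 for Mvp. In df/+ mice they fell by 0.65, 0.96, 0.61, 0.68 and 0.80 log2, each more than the difference of −0.28 for Mvp. These comparisons share their +/+ mice.

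**Figure D3:**
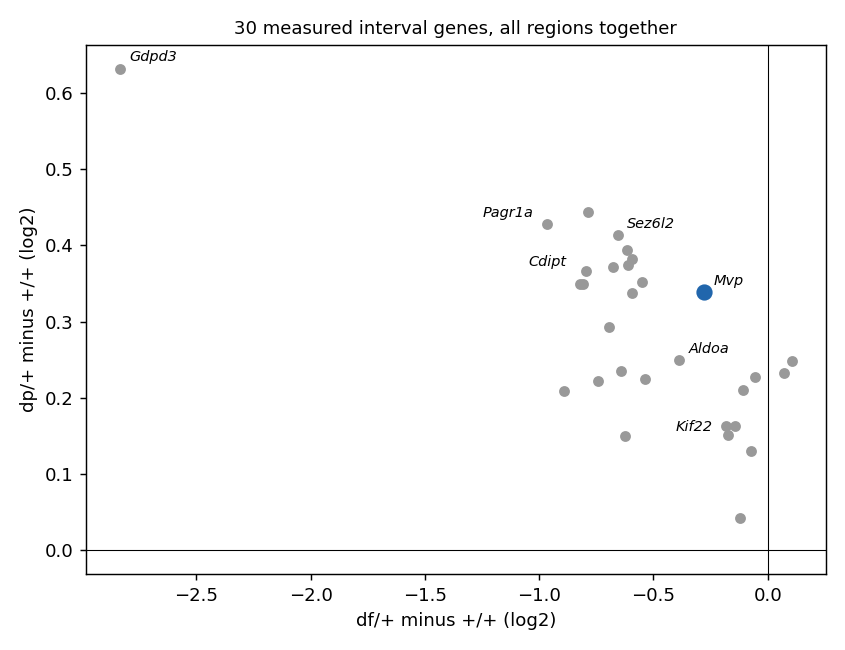
Difference from +/+ in df/+ mice (horizontal axis, log2) and in dp/+ mice (vertical axis, log2), averaged over regions, for the 30 measured genes of the interval. Each point is a gene, with Mvp in blue. Mvp, at −0.28 on the horizontal axis and 0.34 on the vertical axis, sits to the right of its 5 called neighbours and slightly below them.

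In the wild-type brain, Mvp was highest in the cerebellum and lowest in the cortex. The +/+ means were 8.11 ± 0.09 log2 in the cerebellum, 7.75 ± 0.10 in the olfactory bulb, 7.74 ± 0.20 in the brain stem and 7.44 ± 0.12 in the cortex (SD, n = 3 mice each). The 4 regions differed (F = 15.4, limma adjusted p = 0.00024), as they did for 58.0% of all genes. Mvp was higher in the cerebellum than in the cortex by 0.67 ± 0.10, as the contrast of cortex minus cerebellum gave −0.67 (limma adjusted p = 4.41e-05, 37.2% of genes called). The cerebellum also exceeded the brain stem, by 0.37 ± 0.10 (limma adjusted p = 0.00761, 36.8% called). Olfactory bulb minus cerebellum was −0.36 ± 0.10 (limma adjusted p = 0.00766, 37.6% called), and olfactory bulb minus cortex 0.31 ± 0.10 (limma adjusted p = 0.024, 35.7% called). Cortex minus brain stem was −0.30 ± 0.10 (limma adjusted p = 0.0311, 27.3% called). Of these calls, cortex against cerebellum passed in 12 of 12 alternatives, both other cerebellum contrasts in 10, olfactory bulb minus cortex in 8 and cortex minus brain stem in 6. Cortex minus brain stem was lost with any 1 of the 3 +/+ mice left out (limma adjusted p of 0.0591 to 0.18). Olfactory bulb minus cortex was 0.188 without +/+ mouse 2 (limma adjusted p = 0.301) and 0.342 without +/+ mouse 1 (0.0597). Olfactory bulb minus cerebellum was lost without +/+ mouse 1 (0.0817) or mouse 3 (0.0684), and cerebellum minus brain stem without mouse 1 (0.057) or mouse 2 (0.0595), by the same limma adjusted p. The olfactory bulb and the brain stem, next to each other in that order, did not differ beyond their spread (0.002 ± 0.10, limma adjusted p = 0.991, where 32.6% of genes were called), and their order turned under several other treatments of the arrays.

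Vaultrc5, whose own copies were equal in all mice, was low in both df/+ mice and did not follow the number of copies upward. Relative to the +/+ mean of each region, df/+ mice 1 and 2 lay at −1.13 and −1.42 log2. The +/+ mice lay at −0.18, 0.39 and −0.21, and the dp/+ mice at −0.15, 0.07 and −0.49. Both df/+ mice were thus below all the others, and the dp/+ mice overlapped the +/+ mice. The df/+ mean stood at 41.3% of the +/+ level, −1.28 log2, the difference on which the gene was selected. Its slope was 0.70 and its unequal step 1.60, both of which contain that difference.

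The dp/+ mice had Vaultrc5 at 87.6% of +/+, a difference of −0.19 ± 0.16 log2 that did not pass the test (SE, n = 3 each; limma adjusted p = 0.486). This comparison called 1.86% of all genes and shares the +/+ mice with the one that chose the gene. The 95% interval of the dp/+ difference ran from −0.54 to 0.16 log2. The sign of this difference turned without the olfactory bulb, to 0.09, and with weights for the arrays, to 0.02.

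The SD between mice of 1 genotype in 1 region ran between 0.06 and 0.82 log2 for Vaultrc5 and between 0.004 and 0.20 for Mvp. In the olfactory bulb the df/+ mice had 7.15 and 6.89, the +/+ mice 9.82, 9.18 and 8.19, and the dp/+ mice 8.43, 7.86 and 8.05 log2. In the cortex the df/+ mice had 7.65 and 7.22, the +/+ mice 7.86, 8.74 and 8.13, and dp/+ mice 1 and 2 had 8.31 and 8.81. The df/+ samples were the lowest in both regions, and the dp/+ samples overlapped the +/+ ones. In the cerebellum the df/+ mice had 7.89 and 7.09, the +/+ mice 7.81, 8.59 and 8.81, and the dp/+ mice 8.25, 9.06 and 7.69 log2. In the brain stem the df/+ mice had 7.17 and 7.48, the +/+ mice 8.17, 9.41 and 8.43, and the dp/+ mice 8.81, 8.91 and 8.92 log2. In the cerebellum df/+ mouse 1 was above +/+ mouse 1 and dp/+ mouse 3, so that the groups overlapped, and in the brain stem the df/+ mice were again the lowest. Between the arrays of 1 sample, the median absolute difference over 6 pairs was 0.20 for Vaultrc5 (highest 0.45) and 0.09 for Mvp (highest 0.27).

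Over regions, the df/+ samples of Vaultrc5 were below every +/+ sample in 3 of 4, all but the cerebellum, which repeats the contrast that chose the gene. The dp/+ samples lay above every +/+ sample in 0 of 4 regions. Its df/+ level was 24.4% of +/+ for olfactory bulb, 39.3% for brain stem, 53.1% for cerebellum and 57.1% for cortex, or −2.04, −1.35, −0.91 and −0.81 log2. These shares describe the samples that chose the gene, and no region is set apart by them.

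The dp/+ difference of Vaultrc5 was −0.95 ± 0.35 log2 in the olfactory bulb (SE; limma adjusted p = 0.146). It was 0.28 ± 0.39 for cortex, −0.07 ± 0.35 for cerebellum and 0.21 ± 0.35 for brain stem (limma adjusted p = 0.774, 0.904 and 1). None passed. Without +/+ mouse 3 the olfactory bulb value was −1.385 and passed (limma adjusted p = 0.0392), within a range of −1.385 to −0.571 as mice were left out. The F test between regions gave 2.79 with a limma adjusted p of 0.353 (unadjusted 0.0591), and called 0.211% of all genes. In the wild-type brain the +/+ means of Vaultrc5 were 9.06 ± 0.82 log2 in the olfactory bulb, 8.67 ± 0.66 in the brain stem, 8.40 ± 0.53 in the cerebellum and 8.24 ± 0.45 in the cortex (SD, n = 3 mice each). The regions were not separated by the F test (F = 2.46, limma adjusted p = 0.147), which called 58.0% of all genes. No pair of regions passed, where the pairwise tests called 27.3% to 37.6% of all genes. The closest, olfactory bulb minus cortex, was 0.82 ± 0.32 (limma adjusted p = 0.0596). No adjacent regions in that order differed beyond their spread. Without +/+ mouse 3 the F value was 7.84 with a limma adjusted p of 0.00882.

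In bulk tissue, fewer cells of a type and less RNA per cell cannot be told apart. Marker lists of neurons, astrocytes, oligodendrocytes, microglia and endothelium, and of the interferon response, had 0 members called for the slope, for df/+ or for dp/+, against 0.110%, 0.115% and 1.86% of all genes. At an unadjusted p under 0.05 in limma there were 2 of 6 endothelial and 1 of 4 oligodendrocyte markers for the slope and 1 of 6 interferon genes for df/+. For dp/+ there were 3 of 6 interferon genes and 1 each of the microglial, endothelial and oligodendrocyte markers. Over all 19938 genes, 1370 had such a p for the slope, 1346 for df/+ and 4724 for dp/+. The list of choroid plexus and ependyma, which line the ventricles, also had 0 of 5 measured members called, with 3 at an unadjusted p under 0.05 in limma for df/+. Its mean over the 5 genes, relative to +/+, was −0.57 and −0.19 log2 in the df/+ mice and −0.17, −0.36 and −0.23 in the dp/+ mice. In the +/+ mice it was 0.05, 0.15 and −0.20. The df/+ and dp/+ mice thus lay low for it beside +/+ mice 1 and 2, with +/+ mouse 3 among them, and its part in the Vaultrc5 values was not tested. By gene, Ttr stood at −0.70, Kl at −0.57, Aqp1 at −0.32, Folr1 at −0.25 and Foxj1 at −0.05 ± 0.07 (SE) log2 in df/+ mice. The dp/+ values in that order were −0.51, −0.34, −0.16, −0.19 and −0.07 ± 0.06 (SE). Of the 4 measured cortex markers 0 were called, and 2 had an unadjusted p under 0.05 in limma for df/+ and for dp/+. These were the pyramidal neuron transcription factor genes Tbr1, at −0.47 in df/+ and −0.50 in dp/+ mice, and Neurod6, at −0.47 and −0.42. Lamp5 had 0.18 and −0.04, and Rtn4r −0.11 and −0.01, in the same order of genotypes. Their part in the values of Mvp and Vaultrc5 was not tested.

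Of 10 other RNAs made by RNA polymerase III, 6 were measured and 0 were called in df/+ mice, where 0.115% of all genes were. Beside 1346 of 19938 genes, 1 of these 6 had an unadjusted p under 0.05 in limma. Their df/+ differences ran between −0.16 and 0.13 log2 with a median of −0.02, against −0.01 for all genes. They include Rn7sk, which restrains transcription elongation (0.04), the Y RNA genes Rny1 (−0.06) and Rny3 (0.13), Rpph1, the RNA of ribonuclease P (0.02), and Rnu6, the spliceosomal U6 RNA (−0.15). The mean signals of Rn7sk (14.23), Rny3 (14.17) and Rpph1 (13.59) lay near the array maximum of 14.54 log2. That of Rnu6 (3.87) lay near the minimum of 3.29. A change may not show so close to either end, so these RNAs are not shown to be stable. Rmrp, the RNA of the related mitochondrial RNA processing ribonuclease, had −0.16 in df/+ mice (limma adjusted p = 0.722). Rmrp fell by 0.33 ± 0.06 log2 in dp/+ mice (SE, n = 3 each; limma adjusted p = 0.0299). It was the only one of the 6 called there, beside 1.86% of all genes.

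The slope, df/+ and dp/+ comparisons called 0.110%, 0.115% and 1.86% of all genes. Among 28 measured genes of the polymerase III machinery, 0 were called for the slope or for df/+ and 1 was lower in dp/+ mice. That was Snapc5, a subunit of the complex that binds small nuclear RNA promoters, which fell by 0.35 ± 0.06 log2 (SE; limma adjusted p = 0.0227). Its df/+ difference was −0.39 ± 0.07 log2 (SE; limma adjusted p = 0.0977). The median of the 28 was −0.07 in df/+ and −0.08 in dp/+ mice, against −0.01 for all genes in each. Proteins that bind or process vault RNA had 0 of 8 called in any of the 3 comparisons. The same held for 14 of the PARP family to which Parp4 belongs, for 9 telomerase genes, whose RNA Tep1 also binds, and for 5 of 7 listed genes of reported MVP partners. At an unadjusted p under 0.05 in limma, the df/+ comparison had 4 of 28 in the machinery, 0 of 8 among the binders, 0 of 14 in the PARP family, 3 of 9 for telomerase and 0 of 5 among the partners. For dp/+ the counts were 7, 0, 2, 2 and 0 in the same order, and for the slope 0 in each list, beside 1346, 4724 and 1370 of 19938 genes for df/+, dp/+ and the slope.

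The genes around Vaultrc5 on chromosome 18 were not called in df/+ mice, a comparison that called 0.115% of all genes. The 6 nearest measured genes are Hars and Hars2, which charge histidine transfer RNA in cytosol and mitochondria, Zmat2, Gm6756 and the protocadherin genes Pcdhb1 and Pcdhb2. Beside 1346 of 19938 genes, 2 of these 6 had an unadjusted p under 0.05 in limma in df/+ mice, and 0 were called. Their df/+ differences ran between −0.29 for Zmat2 (limma adjusted p = 0.219) and 0.05 for Gm6756. In dp/+ mice, where 1.86% of all genes were called, Zmat2 fell by 0.24 (limma adjusted p = 0.0488) and Pcdhb2 by 0.32 log2 (limma adjusted p = 0.0187).

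The genes whose pattern over the 31 samples was most like that of Mvp lay mostly in the interval. On the log2 values the highest Pearson correlations were with Tlcd3b (0.905), the collagen gene Col1a2 (0.858) and Ypel3 (0.831), of which Col1a2 lies outside the interval. After the +/+ mean of each region was subtracted, the 5 highest were all interval genes: Taok2, a MAP kinase kinase kinase (0.863), Tlcd3b (0.861), Ppp4c, the catalytic subunit of protein phosphatase 4 (0.857), Ypel3 (0.853) and Sez6l2 (0.852). These genes share the copy number change, and the samples share 8 mice. Within a genotype the relation with Taok2 was 0.73 in 8 df/+ samples, 0.24 in 12 +/+ samples and 0.13 in 11 dp/+ samples. For the rest of those 5 genes it ran from −0.48 (Sez6l2, dp/+ samples) to 0.55 (Ppp4c, df/+ samples), with −0.31 for Ypel3 in +/+ samples. Col1a2 had a log2 correlation with Mvp of 0.75 in df/+, 0.93 in +/+ and 0.60 in dp/+ samples. In dp/+ mice the difference of Col1a2 was 0.19 ± 0.06 (SE; limma adjusted p = 0.104).

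The genes most like Vaultrc5 in pattern included small nucleolar RNA genes and none of the interval. On the log2 values its highest correlations were with Snord35a (0.82), a box C/D small nucleolar RNA, Lamtor4, a part of the lysosomal Ragulator (0.777), and Snora52, a box H/ACA small nucleolar RNA (0.775). After subtraction of the +/+ mean of each region they were with Snord35a (0.885), Snora52 (0.88), Ranbp1, a Ran-binding protein of nuclear transport (0.858), Smim11 (0.838) and Psmg4, a proteasome assembly chaperone (0.832). The relation with Snord35a was present within each genotype, at 0.82 in 8 df/+ samples, 0.99 in 12 +/+ samples and 0.91 in 11 dp/+ samples. Snord35a was picked for the highest correlation over these same samples, so the values within a genotype are no separate support. These are descriptions over samples that share mice and arrays, with no test.

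The genes named for their likeness to Vaultrc5 were called neither in df/+ nor in dp/+ mice. Those comparisons called 0.115% and 1.86% of all genes. All were lower in df/+ mice, with unadjusted limma p values from 0.00115 (Psmg4) to 0.0335 (Snord35a), beside 1346 of 19938 genes under 0.05. In dp/+ mice Psmg4 (0.0128) and Lamtor4 (0.0442) were under 0.05, beside 4724 genes. They were picked for a pattern like that of a gene selected on df/+, so these values are no separate support. Snord35a had −0.53 ± 0.22 log2 in df/+ mice (SE; limma adjusted p = 0.705) and −0.13 ± 0.20 in dp/+ mice (limma adjusted p = 0.72). Snora52 had −0.39 ± 0.12 in df/+ mice (limma adjusted p = 0.566) and −0.21 ± 0.11 in dp/+ mice (limma adjusted p = 0.265). Whether small RNAs were recovered to different degrees in different samples was not tested, since the labels give no measure of RNA quality.

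**Figure D4:**
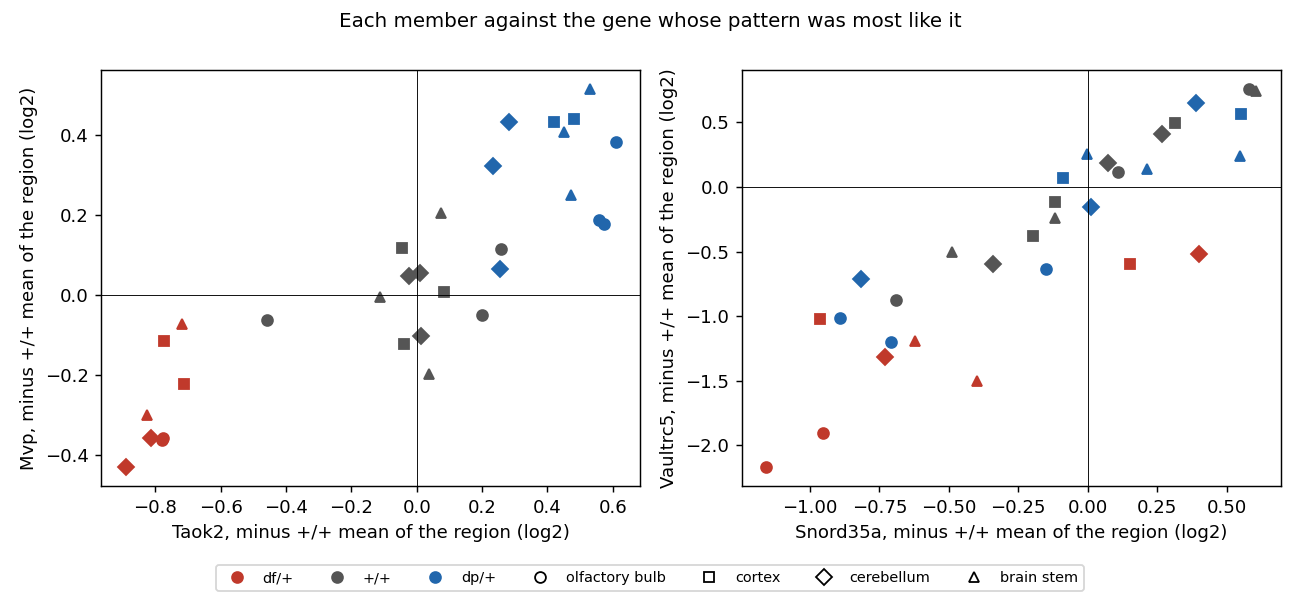
Mvp against Taok2 (left) and Vaultrc5 against Snord35a (right) in each of the 31 region samples, all as log2 expression minus the +/+ mean of the region. Colours mark the genotype and symbols the region. The df/+ points of Mvp lie apart at the lower left, and the dp/+ points lie mostly at the upper right with 1 cerebellum point beside the +/+ points, while the Vaultrc5 points follow Snord35a within each genotype, with the df/+ points at the lower edge.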

How the data were processed

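The authors' deposited values are log2 signals of 35556 probe sets on 37 arrays of total RNA, summarised with RMA in Affymetrix Expression Console per the submitters' processing notes, which give no versions. Base 2 was read from the range of the values (3.29 to 14.54). A single gene symbol is listed for 21789 probe sets, several for 1621 and none for 12146. Names and gene order come from a GRCm38.p6 table that held 21698 of the single-symbol probe sets (91 were not found). The series names no build, so no gene coordinates are given other than those of the Mvp promoter window, on the build of its table. The labels give no batch.

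Repeat arrays were averaged (6 samples). For comparisons over all regions, the log2 values were centred on the +/+ mean of their region and then averaged within each mouse. limma 3.58.1 in R 4.3.3 (lmFit, eBayes) fitted genotype, or a slope on log2 copies, to these 8 values. Regions were fitted together over all 31 samples, in which duplicateCorrelation gave a correlation of 0.15 within a mouse. Regions of +/+ mice were compared with mouse as a fixed term. Adjusted p is by Benjamini and Hochberg over all 19938 genes, with 0.05 as threshold. The procedure was tested on simulated data. Replicates are separate mice by the labels.

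The members and lists were chosen with earlier results of these data known. Named genes are the members, the interval, 3 neighbours on each side, up to 3 genes of each list by smallest p, and those most correlated with each member. All 6 measured polymerase III RNAs, all choroid plexus markers and the list genes called in dp/+ mice, with the cortex markers, are named beyond that rule, after their values were seen. Alternatives used only the first arrays, all probe sets separately, brighter genes, quantile, median or loess normalisation of the deposited values, another prior, array weights, a replicate block, no mouse term, regions alone or left out, copies without the logarithm, and each mouse left out. Leaving out the olfactory bulb, cerebellum or brain stem, and the F test of dp/+ effects between regions, were added after seeing the data.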

Additional observations from a re-analysis of the deposited data

Results flagged for a closer look

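The dp/+ values of Vaultrc5 ran in opposite directions in different regions. Every dp/+ sample lay above the +/+ mean in the cortex, where the difference was 0.28 log2, and in the brain stem, where it was 0.21. Every dp/+ sample lay below the +/+ mean in the olfactory bulb, where the difference was −0.95 log2. The opposite signs drew attention without a test. An F test run afterwards on the dp/+ difference between regions gave a limma adjusted p of 0.353 for Vaultrc5. Without +/+ mouse 1 the brain stem value was −0.04.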

How the results depend on the processing

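Mvp kept a positive slope and a positive dp/+ difference across the brain under every alternative run. Vaultrc5 kept a negative df/+ difference, which repeats the contrast that chose the gene on the same mice and supports nothing. The Mvp slope passed 0.05 in 20 of 23 alternatives (limma adjusted p up to 0.104). The exceptions were every probe set as its own feature (0.386, adjusted p = 0.0508), the replicate block (0.361, adjusted p = 0.0643) and the loss of df/+ mouse 1, with slopes of 0.345 to 0.426 as each mouse was left out. The Mvp dp/+ difference passed in 12 of 22 (limma adjusted p of 0.00253 to 0.188). It missed the threshold after cyclic loess (0.326), among brighter genes (0.339), with the replicate block (0.339), and without the olfactory bulb (0.372) or the cerebellum (0.361), and ran 0.286 to 0.377 as mice were left out. Same-numbered mice correlated between −0.382 and 0.173 after the mean of each genotype was removed, which makes the 2 df/+ mice exact opposites. Mice with different numbers correlated between −0.387 and 0.387. This check therefore cannot tell whether the numbers pair the mice. The cause of the changes between alternatives was not tested. Without 1 df/+ mouse, the remaining one is taken to have the spread of the +/+ and dp/+ mice.

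The df/+ difference of Vaultrc5 chose the gene and carries no test, so only its values are given. It was −1.277 with every probe set and with a trended robust prior, −1.023 without the olfactory bulb and −1.253 without the brain stem. Without df/+ mouse 2 it was −1.128, without +/+ mouse 1 −1.367 and without +/+ mouse 2 −1.084, in a range of −1.425 to −1.084 as mice were left out. Its slope and unequal step contain the difference that chose it and carry no test, with values of 0.716 under array weights and 1.895 without the cortex. Its F test in +/+ mice passed without +/+ mouse 3 (range 1.534 to 7.845). Its dp/+ difference turned positive with array weights (0.024) and without the olfactory bulb (0.09). With mice left out in turn, values that changed sign were the dp/+ difference of Vaultrc5 in the brain stem (−0.04 to 0.582) and cerebellum (−0.436 to 0.248), and, in +/+ mice, its olfactory bulb minus cerebellum (−0.019 to 1.298), olfactory bulb minus brain stem (−0.239 to 0.705), cortex minus cerebellum (−0.314 to 0.105) and cerebellum minus brain stem (−0.593 to 0.009). For Mvp, olfactory bulb minus brain stem ran −0.154 to 0.13 and was −0.036 with first arrays, −0.012 after quantile normalisation, −0.023 after median centring, −0.001 after loess and −0.016 with array weights.

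Within the 4 regions, the df/+ difference of Mvp passed in 0 of 19 alternatives in each region. That of Vaultrc5 repeats the contrast that chose the gene and carries no test. Over both genes and 4 regions, the dp/+ comparison had 0 calls of 8. With array weights it had 2, both of Mvp, in the cortex and the cerebellum. With mice left out it had 0 to 1, the 1 being Vaultrc5 in the olfactory bulb without +/+ mouse 3. The slope of Mvp had 2 calls, with 0 when each region was fitted alone and 0 to 4 with mice left out. With array weights the slope of Mvp did not pass in the cerebellum (0.373, limma adjusted p = 0.511). It did in the cortex (0.386, limma adjusted p = 0.00252) and the brain stem (0.351, limma adjusted p = 0.00325). The slope of Vaultrc5 carries no test here.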

Other observations

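Genes listed for their relation to the vault also varied between regions of the wild-type brain, where 58.0% of all genes differed in the F test over +/+ regions. That test called 5 of 5 measured genes of MVP partners, 7 of 8 that bind or process vault RNA, 7 of 9 telomerase genes, 20 of 28 of the polymerase III machinery, 9 of 14 of the PARP family and 3 of 6 polymerase III RNAs in limma.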
